A study of Rattus norvegicus with 15 samples.

Results

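Among the genes with RNA in the homogenate of postnatal day 5 rat brain, 450 carried almost no ribosome footprints in the granule fraction. They were chosen as the genes with at most 3 counts in each of the 10 footprint libraries and a mean of at least 1 CPM (a gene's count divided by the library's total count and multiplied by 1000000) over RNA-seq libraries 1 to 3. They make up 2.04% of the 22044 genes used and 3.11% of the 14474 genes that reached 1 CPM. The footprint counts and the RNA minimum define the group, so both are described here and not tested. RNA-seq libraries 4 and 5 did not enter the choice.

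Ribosome footprinting reads the short stretches of RNA that a ribosome shields from nuclease. An RNA that is not being translated leaves no fragment shielded by a ribosome. Examples are nuclear long noncoding RNAs, small nuclear or nucleolar RNAs and the transcripts of many pseudogenes. RNA-seq of the homogenate counts an RNA whether or not ribosomes sit on it. The footprints studied here came only from ribosomes that pelleted through a sucrose gradient, the fraction that holds RNA granules, which in neurons carry stalled ribosomes and their messages towards dendrites and axons. Ribosomes outside that pellet were not sampled.

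Every homogenate was made from 5 whole brains, taken from Sprague Dawley rats of postnatal day 5. The 5 vehicle footprint libraries were homogenised without cycloheximide, the 3 cycloheximide libraries with this elongation inhibitor at 100 ug/ml, and for the 2 salt libraries the resuspended pellet stood in 400 mM NaCl and was brought back to 150 mM before RNase I digestion. The 5 RNA-seq libraries are labelled as control and were made from unfractionated homogenate. Nothing in the labels says that libraries of a group came from separate homogenates, so p-values measure the spread between these libraries, which may be technical. The libraries fall into a deep and a shallow set, told apart by empty cells in 6 rows of the table. The deep footprint libraries (vehicle 1 to 3 and cycloheximide 1 to 3) held 27137704 to 53645452 counts and the shallow ones (vehicle 4 and 5 and salt 1 and 2) 941546 to 2808669. RNA-seq libraries 1 to 3 held 19223750 to 26032359 counts, and libraries 4 and 5 held 2533616 and 2265538.

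The deposited table names genes by Ensembl rat gene ID only. None of its 22044 IDs, and so none of the 450, was found in the RefSeq gene table used for names, sequences and gene types. Whether these RNAs are coding or noncoding, polyadenylated or not, is therefore not answered here, no sequence is shown, and the tissue label could not be checked against marker genes. Most genes are described below by their rank, from 1 for the highest mean CPM over RNA-seq libraries 1 to 3. CPM is not divided by gene length, so ranks order counted reads and not molecules.

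In the footprint libraries the 450 genes together held 440 of 218478838 counts, which is 2.01 CPM (exact 95% Poisson interval 1.83 to 2.21, counting error only). In RNA-seq libraries 1, 2 and 3 the same genes together held 3747, 2548 and 2518 CPM. Of the 450 genes, 282 (62.7%) had 0 counts in every footprint library, 86 had a highest count of 1 in any library, 45 a highest count of 2 and 37 a highest count of 3. The largest sum over all 10 footprint libraries was 11 counts. The 282 genes without any count therefore form the bulk of the group, and the ceiling of 3 adds genes with sporadic reads.

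The depth of the pooled footprints sets how low these levels can be said to lie. A count of 0 over the 10 libraries allows up to 3 counts, or 0.0137 CPM, and 96.9% of the pooled counts behind that limit come from the 6 deep libraries. For each gene the upper limit of its pooled footprint CPM (3 counts at 0, otherwise the upper end of the exact 95% Poisson interval) was divided by its mean RNA CPM over libraries 1 to 3. This upper bound had a median of 0.588% over the 450 genes and ran from 0.0145% to 6.44%. It lay under 1% in 324 genes and under 0.1% in 27. In the other 14024 genes of at least 1 CPM, the pooled footprint CPM had a median of 63.4% of the RNA CPM, with quartiles of 36.0% and 100.6%. With all 5 vehicle libraries alone the median bound was 0.913%, since fewer counts were pooled.

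**Figure D1:**
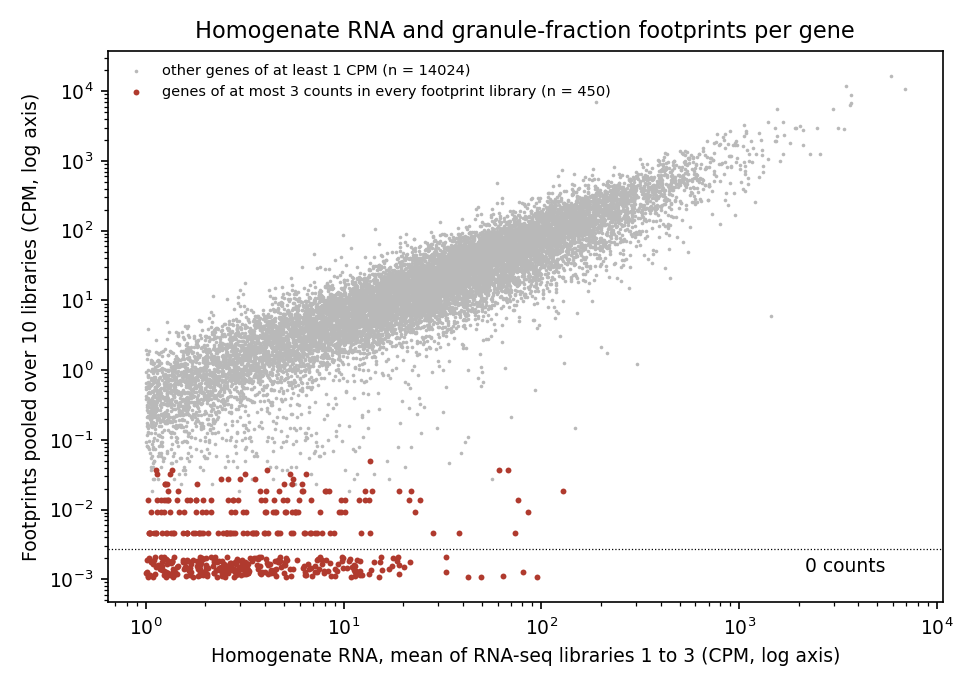
Each point is a gene of at least 1 CPM, with its mean CPM in RNA-seq libraries 1 to 3 on the x axis and its CPM in the 10 pooled footprint libraries on the y axis, both on log axes; genes with 0 footprint counts are scattered at random heights under the dotted line. The 450 genes with at most 3 counts in every footprint library (red) lie below most of the other 14024 genes (grey), at RNA levels up to 129 CPM, and 282 of them lie at 0.

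The ceiling of 3 counts cuts through a thin tail and not through a gap. Among genes of at least 1 CPM, 30 had a highest footprint count of 4, 25 a highest count of 5 and 25 a highest count of 6, against 37 at 3. Just inside the ceiling, the 3 genes of highest RNA level had 68.0, 21.8 and 14.0 CPM with 8, 4 and 4 footprint counts in all. Just outside, the 3 highest had 11.2, 10.6 and 6.79 CPM with 6, 4 and 7 footprint counts. At the RNA minimum, the 3 genes just inside had means of 1.00, 1.01 and 1.01 CPM and the 3 just outside 0.998, 0.992 and 0.989 CPM. The RNA minimum thus also falls in a region where genes lie close together.

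Neither treatment can be compared gene by gene, because every value was held at 3 counts or fewer by the choice. As a description, the summed footprint counts of the 450 genes were 65, 77, 82, 7 and 11 in vehicle libraries 1 to 5. They were 44, 64 and 75 in cycloheximide libraries 1 to 3 and 9 and 6 in salt libraries 1 and 2. On the CPM scale this was 2.62 ± 1.10 CPM (SD, n = 5) with vehicle, 2.14 ± 0.641 CPM (SD, n = 3) with cycloheximide and 7.37 ± 3.10 CPM (SD, n = 2) with salt. The ceiling of 3 counts is worth 0.0559 CPM in the deepest footprint library and 3.19 CPM in the shallowest, so it leaves more room in the salt libraries. In the 4 shallow libraries the sums lay between 3.69 and 9.56 CPM, with vehicle libraries 4 and 5 at 3.69 and 3.92 CPM.

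In the homogenate most of these RNAs were scarce. Their mean over RNA-seq libraries 1 to 3 had a median of 3.01 CPM, with quartiles of 1.79 and 6.24 CPM, against a median of 27.4 CPM in the other genes of at least 1 CPM. The group held 139 genes of at least 5 CPM, 63 of at least 10 CPM and 9 of at least 50 CPM. Genes with 0 footprint counts were not confined to the scarcest RNAs. They made up 40 of the 63 genes of at least 10 CPM, and their median RNA level of 2.90 CPM compares with 3.34 CPM in the 168 genes with a footprint count.

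The most counted RNA of the group was ENSRNOG00000054945, with 217, 91.3 and 78.2 CPM in the deep RNA-seq libraries (1 to 3) against 8733 and 6333 CPM in the shallow ones (4 and 5). It had 4 footprint counts in all, which is 0.0142% of its RNA level in libraries 1 to 3 (counting interval 0.00388 to 0.0364%). Rank 2 had 215, 45.8 and 22.6 CPM in the deep RNA-seq libraries, followed by 12.6 and 3.53 CPM in the shallow ones. It had 0 footprint counts. Its mean over libraries 1 to 3, most of it from library 1, lay at least 6883-fold above the footprint limit. On that mean this was the widest margin of the group. The second set read higher than the first at rank 1 and lower at rank 2.

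The genes at ranks 4 to 6 owed their place to a single library. Rank 4 had 3.12, 0.384 and 238 CPM in RNA-seq libraries 1 to 3, and no count in libraries 4 and 5. Levels at rank 5 were 226, 0.691 and 1.81 CPM in the deep libraries, against 63.2 and 915 CPM in the shallow ones. Rank 6 had 218, 0.461 and 1.08 CPM in the deep libraries, against 0 and 4.41 CPM in the shallow ones. Their means of 80.6, 76.3 and 73.1 CPM therefore describe no typical library.

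Other genes near the top were reproducible in libraries 1 to 3. Rank 7 had 52.2, 80.4 and 71.4 CPM there, and 63.2 and 15.0 CPM in the shallow libraries. Rank 9 had 49.9, 66.8 and 66.0 CPM there, and 30.4 and 31.3 CPM in the shallow libraries. Both had 8 footprint counts in all, at most 0.106% and 0.118% of their RNA level. Of the 15 most counted genes, 7 had 0 footprint counts, 4 had over 80% of their summed CPM of libraries 1 to 3 in a single library, and 8 had a mean under 5 CPM in libraries 4 and 5.

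**Figure D2:**
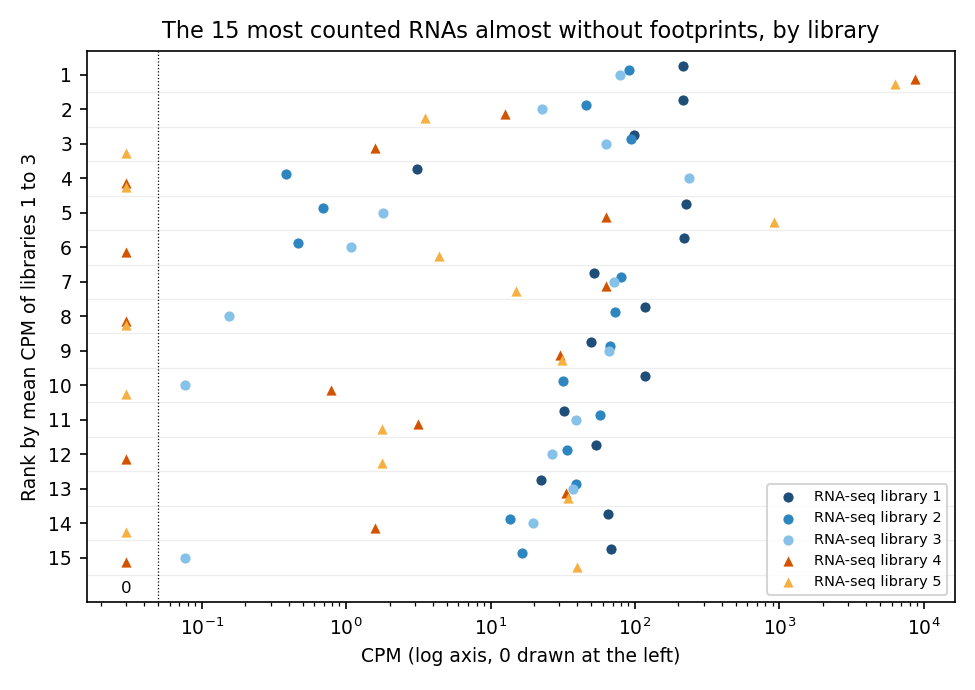
CPM in each of the 5 RNA-seq libraries (log x axis, 0 drawn left of the dotted line) for the 15 genes of highest mean CPM over libraries 1 to 3, listed by rank on the y axis; circles are libraries 1 to 3 and triangles libraries 4 and 5. Rank 1 rises to 8733 and 6333 CPM in libraries 4 and 5, ranks 4 and 8 have 0 counts in both, and at rank 13 all 5 libraries lie between 22.2 and 39.3 CPM.

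Dependence on 1 library was not limited to the top. In 48 of the 450 genes (10.7%) more than 80% of the summed CPM of RNA-seq libraries 1 to 3 came from a single library, which was library 1 in 23 genes, library 2 in 9 and library 3 in 16. Among the other 14024 genes of at least 1 CPM this was so in 56 (0.399%). Among genes of at least 10 CPM the counts were 7 of 63 (11.1%) and 19 of 10110 (0.188%). All 3 libraries reached 1 CPM in 291 of the 450 genes (64.7%) and in 95.4% of the others.

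Correlations over genes were lower in this group as well. Between RNA-seq libraries 1 to 3, Pearson's r of log2(CPM + 1) over the 450 genes was 0.376 to 0.563, against 0.966 to 0.979 over the other 14024 genes. Between libraries 4 and 5 it was 0.756, against 0.923. Across the sets it was 0.305 to 0.405, against 0.893 to 0.932. The 450 genes span a lower and narrower range of RNA levels than the others, with 90th percentiles of 12.1 and 166.5 CPM. No correlation was computed at matched levels, so the part of this range in the lower r was not tested. These correlations describe genes within libraries, which are not independent replicates.

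RNA-seq libraries 4 and 5 gave a reading of these RNAs that the choice had not used. Of the 450 genes, 168 (37.3%) reached 1 CPM in both libraries, 141 in only 1 of them and 141 in neither, while 87.96% of the other 14024 genes reached it in both. In these shallow libraries 2 counts are worth 0.789 and 0.883 CPM, so the minimum needs 3 counts and a scarce RNA can miss it by counting error. A level of 10 CPM corresponds to 25.3 counts in library 4 and 22.7 in library 5. Of the 63 genes of at least 10 CPM, 40 (63.5%) reached 1 CPM in both libraries, 10 in 1 of them and 13 in neither. Of the 10110 other genes at that level 99.5% reached it in both.

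A complete lack of counts in RNA-seq libraries 4 and 5 was seen in 70 of the 450 genes (15.6%) and in 228 of the others (1.63%). Among genes of at least 10 CPM it was seen in 9 of 63 (14.3%) and in 2 of 10110 (0.0198%). These 9 genes had means of 10.6 to 80.6 CPM in libraries 1 to 3, and 3 of them had over 80% of that in a single library. A count of 0 in both libraries allows up to 0.625 CPM, 3 counts of their 4799154 pooled counts, if counts are independent. Most RNA-seq counts are even numbers, so a read pair may add 2 counts, and the limit would then be higher.

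**Figure D3:**
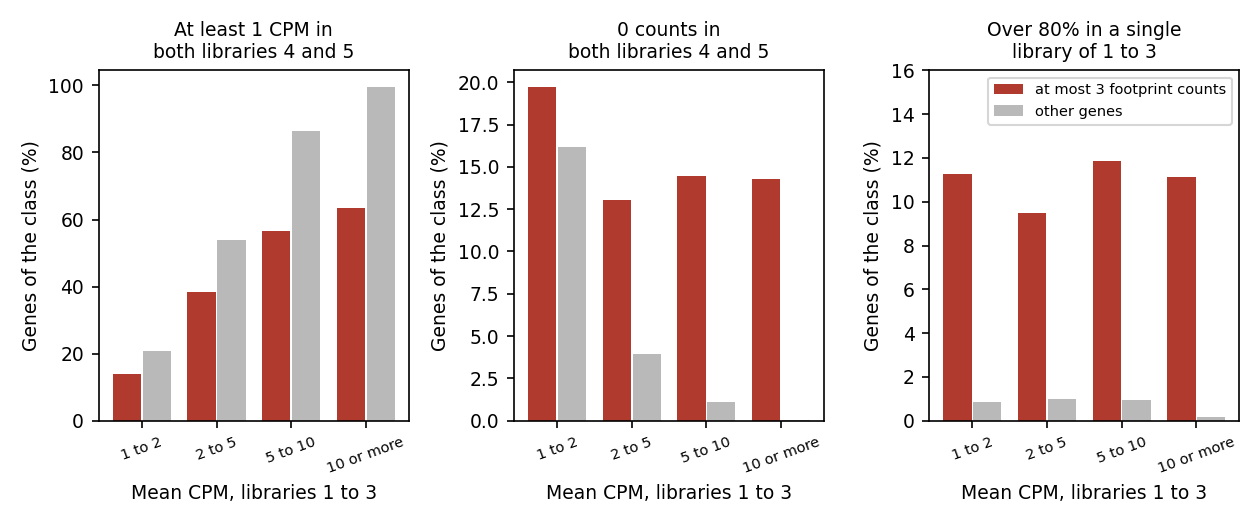
Share of genes (y axes, percent) in 4 classes of mean CPM over RNA-seq libraries 1 to 3 (x axes) for the 450 genes with at most 3 footprint counts (red) and the 14024 other genes (grey): at least 1 CPM in both libraries 4 and 5 (left), 0 counts in both (middle) and over 80% of CPM in a single library of 1 to 3 (right). At 10 CPM or more the shares are 63.5% and 99.5% on the left, 14.3% and 0.0198% in the middle and 11.1% and 0.188% on the right.

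Levels in RNA-seq libraries 4 and 5 were then set against those in libraries 1 to 3. The mean CPM of libraries 4 and 5 was 0.507 times that of libraries 1 to 3 at the median over the 450 genes and 0.826 times over the other genes. It was under 0.5 times in 220 genes (48.9%, against 13.2% of the others) and over 2 times in 36 (8%, against 6.24%). In genes of 1 to 2, 2 to 5, 5 to 10 and at least 10 CPM in libraries 1 to 3, the median ratio was 0.548, 0.574, 0.438 and 0.421 in the group and 0.816, 0.873, 0.860 and 0.821 in the other genes. The minimum was set on libraries 1 to 3 in both lists, and its part in these ratios was not tested.

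The sets were compared with edgeR's quasi-likelihood test over all genes, with libraries 4 and 5 against 1 to 3 and Benjamini-Hochberg adjustment over the 15930 genes tested. Of the 450 genes, 430 passed the filter on low counts and 13 had an adjusted p under 0.05. The 4 genes higher in libraries 4 and 5 are 0.93% of the 430, where 3.92% of all genes tested were called higher. The 9 genes lower in libraries 4 and 5 are 2.09%, where 1.93% of all genes tested were called lower. With all libraries in the test, both shares lay near or below those of all genes. The median log2 ratio was -0.69 over the 430 genes and -0.08 over all genes tested. The number called depended on the libraries and the tool. Without library 1, 19 of the group were called (4.645% of those tested, against 2.14% of all genes). Without library 2 the count was 12 (3.2% against 0.974%), and without library 3 it was 18 (4.71% against 8.53%). The group's share thus lay above that of all genes without library 1 or 2, and below it without library 3. Lower calls without library 1 numbered 10 in the group and 46 over all genes, and without library 2 they numbered 7 and 19. DESeq2 called 50 (11.6% against 15.6%). With limma-voom 7 were called (1.63% against 3.13%), of which 5 were higher (1.16% of those tested) and 2 lower (0.465%). Over all genes limma-voom called 439 higher and 60 lower. The balance of directions thus depended on the tool, in the group and over all genes. When libraries were scaled by total counts only, the median of all genes moved to -0.27. The calls over all 15930 genes tested were then 569 higher and 1049 lower, in place of 624 and 308. Those in the group were 4 higher and 20 lower (0.93% and 4.65% of the 430), in place of 4 and 9. The libraries of both sets carry the same labels, so what else differed between them is not known.

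**Figure D4:**
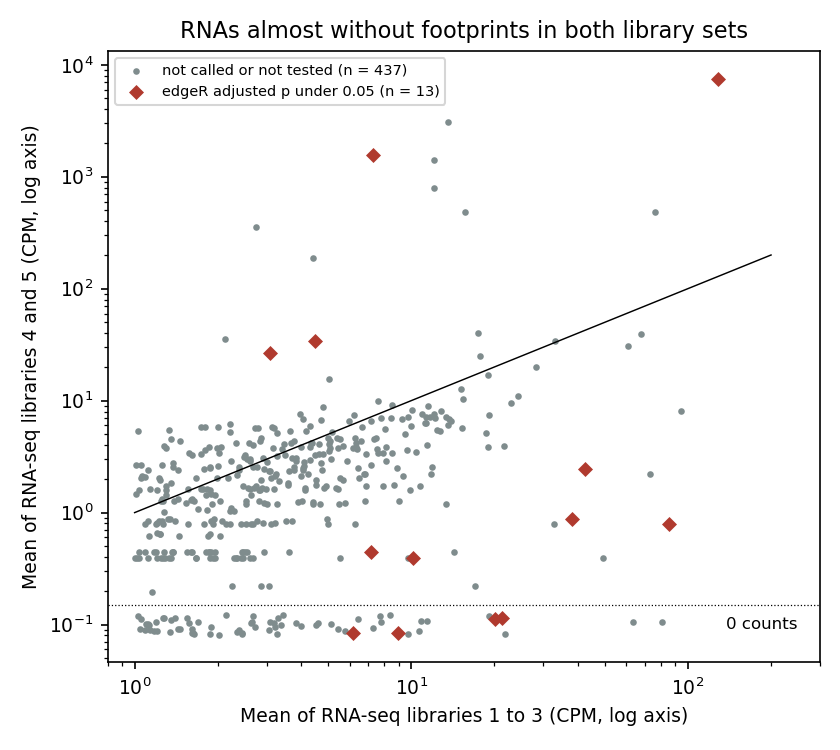
Each point is 1 of the 450 genes, with its mean CPM in RNA-seq libraries 1 to 3 on the x axis and in libraries 4 and 5 on the y axis (log axes; 0 counts drawn at random heights under the dotted line; the line marks equal levels). Red diamonds are the 13 genes with an edgeR adjusted p under 0.05, 4 above the line and 9 below it, and the cluster at the upper edge holds genes that reach 187 to 7533 CPM in libraries 4 and 5.

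Of the genes called higher, ENSRNOG00000054945 had a log2 ratio between sets of 6.08 (SE 0.49; adjusted p 0.00174 with edgeR), from 129 ± 76.4 CPM (SD, n = 3) to 7533 ± 1697 CPM (SD, n = 2). ENSRNOG00000059586, at rank 95 and with 0 footprint counts, had 15.6, 3.04 and 3.23 CPM in the deep libraries against 1519 and 1594 CPM in the shallow ones. The sets lay far apart, and its log2 ratio was 7.96 (SE 1.03; adjusted p 0.0387 with edgeR). That call was lost without the filter on low counts (edgeR adjusted p 0.0605) and without RNA-seq library 3, 4 or 5 (0.0545, 0.106 and 0.113). The other 2 genes called higher, both with 0 footprint counts, were much less abundant. Rank 158 had 2.91, 6.15 and 4.38 CPM in the deep libraries against 36.3 and 31.8 CPM in the shallow ones (log2 ratio 3.11, edgeR adjusted p 0.00231). At rank 219, 3.80, 3.07 and 2.42 CPM stood against 33.2 and 20.3 CPM (log2 ratio 3.31, edgeR adjusted p 0.00159).

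Of the genes called lower, ENSRNOG00000015880 at rank 3 was the most counted. It had 98.6, 94.6 and 62.8 CPM in the deep libraries against 1.58 and 0 CPM in the shallow ones, with no overlap. Its log2 ratio was -6.47 (SE 0.58; adjusted p 0.000557 with edgeR), and it had 2 footprint counts. ENSRNOG00000001476 at rank 20 had 27.0, 12.6 and 24.3 CPM in the deep libraries against 0 counts in both shallow ones. At the limit of 3 pooled counts it was at least 34.1-fold lower there (edgeR adjusted p 0.00469, limma-voom adjusted p 0.0997). A further 3 of the genes called lower, at ranks 21, 74 and 115, also had 0 counts in both libraries, with 20.2, 8.98 and 6.18 CPM on average in libraries 1 to 3. At the same limit they were at least 32.2-fold, 14.4-fold and 9.88-fold lower. These folds assume independent counts and would be smaller where read pairs add 2 counts. With limma-voom the adjusted p was 0.126 at rank 21 and 0.139 at rank 115. At rank 74 the edgeR adjusted p was 0.0521 without library 2. At rank 115 it was 0.0788 without library 1 and 0.148 without library 2.

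A few genes carried nearly all reads of the group in RNA-seq libraries 4 and 5. The 10 most counted genes of the group took 93.3% of its counts in library 4 and 92.6% in library 5, but only 24.4% to 37.4% in libraries 1 to 3. Of these 10 genes, 9 were the same in libraries 4 and 5, while libraries 1 to 3 had 2 in common. The 9 genes together reached 16421 and 15422 CPM in libraries 4 and 5, against 584, 113 and 122 CPM in libraries 1 to 3. The other 441 genes held 1283 ± 39.8 CPM in all in libraries 4 and 5 (SD, n = 2) and 2665 ± 432 CPM in libraries 1 to 3 (SD, n = 3). The 9 genes were picked on these values, so no test is given for them as a set.

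Of the 9, only ENSRNOG00000054945 and ENSRNOG00000059586 passed the test between sets. Rank 38 had 12.4, 2.73 and 25.6 CPM in the deep libraries against 3458 and 2735 CPM in the shallow ones, a 228-fold ratio of means (edgeR adjusted p 0.0575). At rank 245, 0.104, 3.11 and 5.04 CPM stood against 309 and 402 CPM (edgeR adjusted p 0.0740). At rank 30, 46.7, 0.0768 and 0 CPM stood against 588 and 380 CPM (edgeR adjusted p 0.361). In each of these the deep libraries differed widely among themselves. Their footprint counts, fixed by the choice, were at most 4 in all.

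The genes at ranks 46 and 47 may share reads. Both had 526, 144 and 86 counts in RNA-seq libraries 1 to 3, and 2876 and 3854 counts against 1412 and 2366 counts in libraries 4 and 5, so their values cannot be taken as separate measurements. The genes at ranks 54 and 56 were close to that, with 133 counts each in library 1, 396 and 392 in library 2, 310 and 304 in library 3, and 14 and 16 counts each in libraries 4 and 5. In all, 5 of the 450 genes (1.11%) had the same 3 counts in libraries 1 to 3 as another gene of at least 1 CPM, against 0.608% of all such genes. No gene of the group matched another in all 5 libraries. How reads that fit several genes were counted is not given in the sources used here.

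At the other end, some RNAs of the group were steady in all 5 RNA-seq libraries. In 19 of the 63 genes of at least 10 CPM the highest and the lowest library lay within 4-fold of each other. The most counted without any footprint count was ENSRNOG00000007219 at rank 13, with 22.2, 39.3 and 37.5 CPM in the deep libraries against 33.2 and 34.4 CPM in the shallow ones. Both shallow values lay within the range of the deep ones. With 0 counts in 10 footprint libraries, its footprints lay at or below 0.0416% of its RNA level, and its RNA at least 2405-fold above the footprint limit. Rank 24 had 23.6, 18.6 and 14.8 CPM against 18.95 and 15.0 CPM. Rank 27 had 14.3, 19.3 and 19.8 CPM against 27.6 and 22.95 CPM. Both also had 0 footprint counts. These genes were picked for their agreement over the 5 libraries, so no test between sets is given for them.

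Further features of the table set the group apart from the other genes of at least 1 CPM as a description. In RNA-seq libraries most counts are even numbers, as when both mates of a read pair count. Among nonzero values of the 450 genes 82.5% to 85.1% were even in libraries 1 to 3 and 83.0% to 84.9% in libraries 4 and 5. In the other genes the shares were 86.8% to 94.1% and 98.2% to 98.3%. Odd counts were thus more frequent in the group in every RNA-seq library. Ensembl gives rising numbers to gene models as they are created. The number in the ID exceeded 30000 in 287 of the 450 genes (63.8%) and in 22.5% of the others, and it exceeded 40000 in 39.8% and 15.8%.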

How the data were processed

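The authors deposited raw counts of reads for 22050 Ensembl gene IDs as 1 table, whose 15 columns were each matched to a sample by title. The submitters' processing notes name CASAVA, cutadapt 2.8, Bowtie2 2.3.5, STAR 2.7.3a, deepTools and the build Rnor_6.0 without their roles. The counting program, the annotation, the treatment of multiply matching reads and the kind of RNA selection for RNA-seq are not given in the sources used here. Footprint reads are short, so multiply matching reads can affect them more than RNA-seq reads; this was not tested. The 6 rows with empty cells were left out.

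The genes, lists and tests were chosen with earlier results of these data known. Computations used Python 3.11.15 (pandas 2.3.3, scipy 1.17.1) and R 4.3.3. RNA-seq libraries 4 and 5 were compared with 1 to 3 by edgeR 4.0.16 (quasi-likelihood F-test, TMM, filterByExpr, robust), with DESeq2 1.42.0 and limma-voom (limma 3.58.1) as alternatives. The edgeR step was also run on simulated counts with changes planted in genes over 10 CPM only. Recovery of changes in scarcer genes, which most of the group are, was not checked. Standard errors are the absolute log2 ratio divided by the square root of F. Calls had a Benjamini-Hochberg adjusted p under 0.05. Floors are 3 counts and intervals are exact 95% Poisson intervals, both for counting error only and for independent counts. Named by rule were the 15 most counted genes, up to 5 called genes per direction and the genes nearest the thresholds; since IDs could not be paired with names, most are given by rank, and gene classes could not be assigned.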

Additional observations from a re-analysis of the deposited data

Results flagged for a closer look

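The 24 values examined were the 5 RNA-seq levels of 22 named genes and 2 summed levels. In 5 of them a library stood far from the other 4 of its group. The nominal rate of 1 in 20, about 1.2 values, does not apply here. The genes were picked on these same levels, for a high mean over libraries 1 to 3 or a call between the sets. The gene at rank 4 stood at 238 CPM in RNA-seq library 3, with the other libraries between 0 and 3.12 CPM. Rank 6 stood at 218 CPM in library 1, with the others between 0 and 4.41 CPM. Rank 2 stood at 215 CPM in library 1 (others 3.53 to 45.8 CPM) and the gene at rank 10 at 117 CPM in library 1 (others 0 to 31.6 CPM). Rank 5 stood at 915 CPM in library 5 (others 0.691 to 226 CPM). Library 1 holds 3 of the 5. The 6 rows with empty cells entered no comparison, and 4 of them exceeded 3 counts in at least 1 shallow library, with a largest count of 81.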

How the results depend on the processing

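No paired analysis was possible because the only test compares libraries 4 and 5 with 1 to 3 of a single group, which share no replicate number. The group held 450 genes, 282 with a ceiling of 0 footprint counts, 723 with an RNA minimum of 0.5 CPM, 139 with 5 CPM, and 445 to 465 when an RNA-seq library was left out. Choosing on RNA-seq libraries 4 and 5 gave 531 genes, of which 283 are shared (62.9% of the group and 53.3% of the alternative). The test between sets called 932 genes and 13 of the group with edgeR, 1618 and 24 with total counts only, 2481 and 50 with DESeq2, and 499 and 7 with limma-voom. Leaving out a library gave 142 to 1622 genes and 12 to 42 of the group: library 1 gave 324 genes and library 2 gave 142, library 4 gave 1622 and 39 of the group, and library 5 gave 1577 and 42. The group's calls numbered 19 without library 1, which is 4.645% of its genes tested against 2.14% of all genes. They numbered 12 without library 2 (3.2% against 0.974%) and 18 without library 3 (4.71% against 8.53%). With all libraries the shares were 3.02% and 5.85%. Of the 13 genes of the group called with all libraries, 6 kept their call and direction with limma-voom and all 13 with DESeq2. Members at 1 CPM in both libraries 4 and 5 numbered 168. In library 4 254 reached it and in library 5 223, each counted whatever the other library showed. The median footprint bound was 0.588% (SD over the 3 RNA-seq libraries 0.0165), 0.913% with vehicle libraries pooled, 0.715% with all 5 RNA-seq libraries and 1.23% with libraries 4 and 5. Directions of 5 genes that were not called reversed: rank 15 (log2 ratio -0.32) to 1.45 without library 1 and 0.69 without library 4, rank 13 (0.21) to -0.0051 and rank 6 (-4.89) to 1.63 without library 1, and rank 7 (-0.59) to 0.10 and rank 5 (2.88) to -0.022 without library 5. The other ends of their ranges were -11.98 for rank 15 and -13.35 for rank 6 without library 5 and 0.36 for rank 13 without library 2. They were -2.02 for rank 7 without library 4 and 8.75 for rank 5 without library 1. Rank 6 had 0 counts in library 4, the only shallow library left there, so its -13.35 is not a measured fold. Named called genes kept direction in all 132 alternative values and lost the call in 12. A single lone library in a set is assumed to vary like the other set. Depth limits libraries 4 and 5 most, where 3 counts are 1.18 and 1.32 CPM.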
